A study of Mus musculus with 78 samples.

Results

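The imprinted genes examined here are 10 genes of the mouse that are known to be transcribed mainly from one parental copy: H19, Igf2, Igf2r, Peg3, Peg10, Mest, Snrpn, Plagl1, Cdkn1c and Sfmbt2. They were found by Entrez number, and all 10 symbols matched a number. Of the 10, 8 had a row among the 15218 genes of the 4-cell table and 7 had a row among the 15342 genes of the 8-cell table, with 6 in both tables. H19 had a row in neither table, Igf2 and Snrpn had one at the 4-cell stage only, and Peg10 at the 8-cell stage only. Neither table holds a row that is 0 in every column, and no value is given here for a gene without a row.

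The study asked whether blastomeres that descend from different cells of the 2-cell embryo differ in their transcriptomes. Embryos were the offspring of a cross between mice with a CAG-driven Brainbow2.1 multicolour reporter at the ROSA26 locus and Tg(CAG-cre/Esr1*)5Amc/J mice, which carry a Cre recombinase that acts in the presence of tamoxifen. All embryos were exposed to 4-Hydroxytamoxifen for 2 hours at the 2-cell stage and cultured in KSOM medium, so both stages share the transgenes, the treatment and the culture, and there are no untreated embryos. Single blastomeres were amplified with Smart-seq2 and the tables give 24 blastomeres of the 4-cell stage and 26 of the 8-cell stage. In the labels, the 4-cell stage has 36 blastomeres of 9 embryos and the 8-cell stage 31 blastomeres of 4 embryos. Of these, 24 blastomeres of 6 4-cell embryos and 26 of 4 8-cell embryos have a lineage in the labels. These numbers equal those of the columns, and the paper restricted its analyses to blastomeres of known lineage. The labels also hold 5 8-cell blastomeres with lineage NA, as many as the 8-cell columns named NA. Whether these are the same blastomeres is not known. No column name matches an embryo, a lineage or a sample of the labels, and 5 columns of the 8-cell table are named NA. Each stage was therefore handled as 1 pooled sample. Blastomeres of one embryo are not independent, no test between the stages was made. The intervals of shares below treat blastomeres as independent draws, and those of fragments cover counting error only, without the error of amplification.

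The values are FPKM, the fragments on a gene scaled to the length of its transcripts and to the mapped fragments of the blastomere, and they allow levels of different genes to be compared per length. A gene was called on in a blastomere above an FPKM of 1. The number of fragments behind the FPKM was estimated at 6.87 M to 16.9 M in a 4-cell blastomere and 2.34 M to 21.7 M in an 8-cell blastomere, where M stands for mega. Between 3009 and 8276 genes were on in a 4-cell blastomere and between 3548 and 8078 in an 8-cell blastomere. Fewer than 5000 genes were on in 3 blastomeres of each stage. The blastomere identity was borne out by most of its markers. Pou5f1, Sall4, Klf5, Tead4 and Dppa3 were each on in at least 87.5% of the blastomeres of either stage, while Oog1 had no row. Of the 9 markers with a row, 8 were on in at least 50% of the 4-cell blastomeres and 6 in at least 50% of the 8-cell blastomeres. Of all genes with a row, 45.2% and 41.2% were. The exceptions were Tcl1, on in 45.8% of the 4-cell and 30.8% of the 8-cell blastomeres, and, at the 8-cell stage, Gdf9 and Nlrp5, each on in 34.6%. Of 10 markers of cumulus or granulosa cells, 4 had a row at the 4-cell stage and 3 at the 8-cell stage, and none was on in more than 8.33% of the blastomeres of a stage. Their summed level was 0 in 15 of 24 and 24 of 26 blastomeres and at most 6.09 and 1.66 FPKM, with no row for Foxl2, Inha, Inhba, Ptx3 and Cyp11a1. Of 4 markers of fibroblasts or oviduct, 2 had a row at the 4-cell stage and 3 at the 8-cell stage. Their summed level was 0 in 18 of 24 and 21 of 26 blastomeres. The oviduct gene Ovgp1 was on in 12.5% of the 4-cell and 11.5% of the 8-cell blastomeres, up to an FPKM of 45.3. Pax8 was on in 4.17% of the 4-cell blastomeres and in no 8-cell blastomere. Col1a1 was on in no blastomere, and Col3a1 had no row. The part of these genes in the results below was not tested.

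Genomic imprinting marks one parental copy of a gene in the germ line, so that the maternal and paternal copies are transcribed unequally after fertilization. At most imprinted loci the mark is DNA methylation laid down in the oocyte or sperm, which the early embryo keeps through the general loss of methylation by means of zinc finger proteins such as ZFP57. At a smaller group, to which Sfmbt2 belongs, the maternal copy is silenced by histone H3 lysine 27 trimethylation inherited from the oocyte. Of the members, H19, Igf2r and Cdkn1c are known for transcription from the maternal copy and the others for transcription from the paternal copy. The deposited values do not tell the parental copies apart.

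DNA methylation acts on CG dinucleotides, and the promoter windows of the members with the most values above 0 are therefore given with each CG in capitals. They are RefSeq windows on GRCm38.p6, the assembly behind mm10, from 250 bases before a transcript start to 50 bases after it, written 5′ to 3′ on the strand of the gene. RefSeq windows were at hand for 7 members, and none was at hand for H19, Peg10 and Cdkn1c.
Igf2r, chr17:12769657-12769956, minus strand: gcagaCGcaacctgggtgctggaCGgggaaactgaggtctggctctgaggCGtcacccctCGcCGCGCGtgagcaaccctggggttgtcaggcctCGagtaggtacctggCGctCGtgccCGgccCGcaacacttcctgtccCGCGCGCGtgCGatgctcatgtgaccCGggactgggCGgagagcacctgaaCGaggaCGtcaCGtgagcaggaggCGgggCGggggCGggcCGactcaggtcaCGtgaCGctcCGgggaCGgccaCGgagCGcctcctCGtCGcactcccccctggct
Sfmbt2, first start, chr2:10370201-10370500, plus strand: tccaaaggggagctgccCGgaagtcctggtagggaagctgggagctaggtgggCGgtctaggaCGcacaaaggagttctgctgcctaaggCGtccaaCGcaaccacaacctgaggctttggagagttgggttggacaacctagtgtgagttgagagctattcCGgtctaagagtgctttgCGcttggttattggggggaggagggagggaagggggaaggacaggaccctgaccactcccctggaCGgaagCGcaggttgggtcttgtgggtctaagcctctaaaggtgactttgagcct
Sfmbt2, second start, chr2:10372186-10372485, plus strand: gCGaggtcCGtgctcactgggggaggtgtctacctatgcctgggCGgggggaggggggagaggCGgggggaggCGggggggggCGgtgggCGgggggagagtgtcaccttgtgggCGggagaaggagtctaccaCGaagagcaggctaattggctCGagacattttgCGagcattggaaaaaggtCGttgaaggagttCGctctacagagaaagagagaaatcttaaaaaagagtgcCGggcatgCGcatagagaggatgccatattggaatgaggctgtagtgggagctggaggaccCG
Mest, chr6:30737800-30738099, plus strand: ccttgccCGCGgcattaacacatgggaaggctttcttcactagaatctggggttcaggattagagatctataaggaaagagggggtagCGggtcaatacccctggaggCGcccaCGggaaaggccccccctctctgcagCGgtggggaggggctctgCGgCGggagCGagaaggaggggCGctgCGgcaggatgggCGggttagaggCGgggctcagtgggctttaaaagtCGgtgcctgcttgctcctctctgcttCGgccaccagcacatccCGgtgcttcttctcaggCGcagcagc
Peg3, chr7:6730370-6730669, minus strand: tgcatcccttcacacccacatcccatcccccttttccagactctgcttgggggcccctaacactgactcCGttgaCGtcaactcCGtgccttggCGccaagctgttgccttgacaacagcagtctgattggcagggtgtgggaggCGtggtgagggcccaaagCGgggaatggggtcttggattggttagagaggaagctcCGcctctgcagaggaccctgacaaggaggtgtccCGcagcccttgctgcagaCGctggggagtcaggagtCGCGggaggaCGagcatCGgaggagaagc
Plagl1, chr10:13090582-13090881, plus strand: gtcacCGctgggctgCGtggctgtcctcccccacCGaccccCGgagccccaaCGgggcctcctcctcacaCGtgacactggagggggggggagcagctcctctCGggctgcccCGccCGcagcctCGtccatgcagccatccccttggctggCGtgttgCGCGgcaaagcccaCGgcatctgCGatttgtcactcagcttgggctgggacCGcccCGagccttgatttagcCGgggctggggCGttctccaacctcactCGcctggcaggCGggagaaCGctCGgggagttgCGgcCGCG
The windows hold 34 CG in Igf2r, 26 in Plagl1, 17 in Mest, 13 in Peg3, and 9 and 16 at the Sfmbt2 starts. The median over 32817 windows of 26994 genes was 7 CG, and 7.73% of the windows held at least as many as Igf2r. Of the 16 windows of members, 12 held at least the median. The sequence TGCCGC, the core of the motif that ZFP57 is known to bind, was searched on both strands (as GCGGCA on the other). It lies in 5 of the 16 windows of members, including 2 copies in the Mest window shown and 1 in that of Plagl1, and in 11.6% of all windows. The 5 windows include an overlapping pair at the Mest start shown. The window of an upstream Mest start, chr6:30733256-30733555, is not shown and holds 8 CG and 0 copies. None lies in the windows shown for Igf2r, Sfmbt2 and Peg3. The windows cover transcript starts only, and whether they hold the region of a locus that carries the imprint was not tested. The start of Airn, an antisense RNA gene of the Igf2r locus, lies 28395 bases from that of Igf2r, outside the window shown.

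A single member was on in every blastomere of both stages. Igf2r, which encodes the receptor that carries IGF2 to the lysosome for degradation, was on in 24 of 24 4-cell blastomeres and 26 of 26 8-cell blastomeres. Sfmbt2, which encodes a Polycomb group protein needed for trophoblast maintenance, was on in 5 of 24 and 13 of 26. Mest, Cdkn1c and Peg3 were each on in a minority of blastomeres at both stages, Plagl1 at the 4-cell stage only, and Igf2, Snrpn and Peg10 in none. Counting a member as on at a stage when at least 50% of the blastomeres passed FPKM 1, 1 of the 8 members with a row was on at the 4-cell stage (Igf2r) and 2 of 7 at the 8-cell stage (Igf2r and Sfmbt2). Of all genes with a row, 45.2% met this criterion at the 4-cell stage and 41.2% at the 8-cell stage. Sfmbt2 met it with exactly 50% of the blastomeres, and without the columns named NA, with 10 of 21, it did not.

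**Figure D1:**
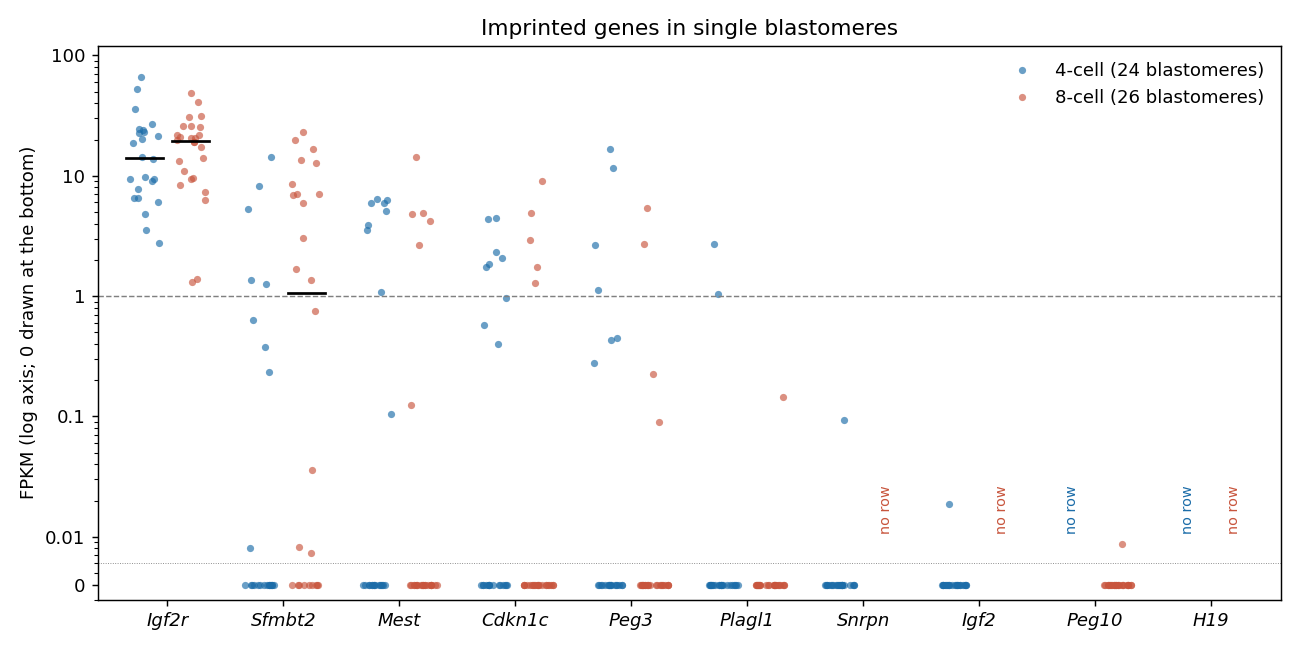
FPKM of each imprinted gene in each blastomere, on a log axis with values of 0 drawn at the bottom, for 24 4-cell (blue) and 26 8-cell (red) blastomeres. Black bars are medians above 0 and the dashed line is FPKM 1. Igf2r lies above the line in every blastomere, whereas the other members split into blastomeres at 0 and blastomeres with up to 23.1 FPKM.

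Igf2r is encoded on the minus strand of chr17:12682406-12769706. Its level ran from 2.74 to 66.5 FPKM in the 24 4-cell blastomeres, around a median of 13.97 (mean 18.3). In the 26 8-cell blastomeres it ran from 1.32 to 49.0 FPKM around a median of 19.5 (mean 18.9). The ranges of the stages overlap. These means stood above those of 76.8% of the genes in the 4-cell table and 77.7% in the 8-cell table. Igf2r was the highest of the members in 23 of the 24 4-cell blastomeres and in 24 of the 26 8-cell blastomeres, and Sfmbt2 was highest in the remaining 3.

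The depth behind the Igf2r values was high, and the spread that amplification adds is not known. The lowest 4-cell value rested on 241 fragments, with a 95% Poisson interval of 2.41 to 3.11 FPKM, and the highest on 5720 fragments, with an interval of 64.8 to 68.3 FPKM. In the 8-cell stage 2 blastomeres stood apart at the low end with 1.32 and 1.38 FPKM, on 184 and 214 fragments, and the next lowest value was 6.34 FPKM. Those 2 blastomeres had 7370 and 7568 genes on and 15.7 M and 17.4 M fragments, which is within the range of the other 8-cell blastomeres.

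The highest Igf2r values of the 4-cell stage came from blastomeres with few detected genes. The blastomeres at 66.5 and 52.6 FPKM had 3009 and 3699 genes on, and the next value, 35.7 FPKM, came from a blastomere with 6319 genes. The remaining gene-poor 4-cell blastomere, with 4939 genes, had the lowest value of the stage, 2.74 FPKM. Over the 21 4-cell blastomeres with at least 5000 genes on, Igf2r ran from 3.57 to 35.7 FPKM with a mean of 15.1, and its coefficient of variation was 58.8% in place of 84.7%. The 3 gene-poor 8-cell blastomeres lay in the middle, between 13.2 and 21.7 FPKM, and without them the coefficient of variation was 62.6% against 59.4% over all 26. Across blastomeres, which share embryos and libraries of unequal depth, the Spearman correlation of Igf2r with the number of genes on was -0.22 at the 4-cell stage (24 blastomeres; Pearson correlation -0.68, and -0.29 over the 21 with at least 5000 genes on) and -0.19 at the 8-cell stage (26 blastomeres; Pearson -0.19). With the summed FPKM of all genes in the blastomere, Igf2r had a Spearman correlation of -0.62 (Pearson -0.88) at the 4-cell stage, and of -0.49 (Pearson -0.60) over the 21 blastomeres with at least 5000 genes on. The same pair gave -0.39 (Pearson -0.30) over the 26 8-cell blastomeres. The part of these library totals in the spread of Igf2r was not tested.

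**Figure D2:**
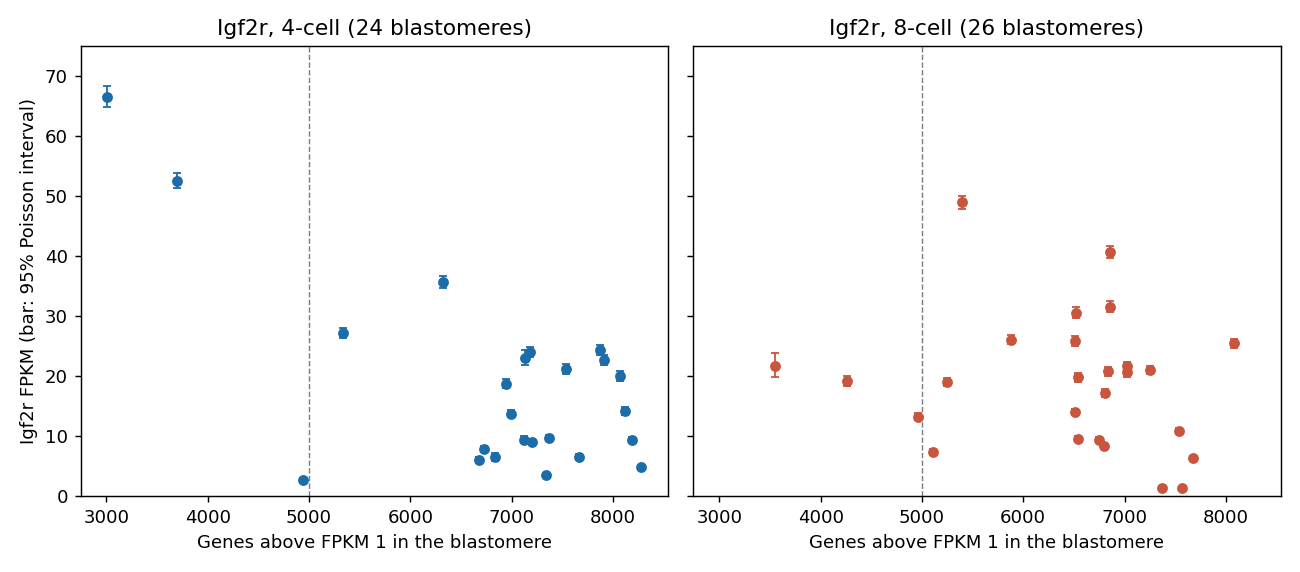
Igf2r FPKM against the number of genes above FPKM 1 in the same blastomere, with 95% Poisson intervals of the fragment counts, for 24 4-cell (left) and 26 8-cell (right) blastomeres. The dashed line marks 5000 genes. The values 66.5 and 52.6 FPKM belong to the 4-cell blastomeres with the fewest genes on.

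Airn, the paternally transcribed antisense RNA of the Igf2r locus, overlaps Igf2r over 28396 bases. Airn was on in 1 of 24 4-cell blastomeres (2.55 FPKM) and in 1 of 26 8-cell blastomeres (3.62 FPKM). Smart-seq2 libraries do not record the strand, so fragments on the shared stretch cannot be assigned to either gene with certainty. By rank correlation within each stage, the 3 genes most like Igf2r among 5955 genes on in at least 50% of the blastomeres of both stages included Chd1 (mean Spearman correlation 0.68, from 0.71 over the 4-cell and 0.64 over the 8-cell blastomeres) and Srrm2 (0.59). Chd1 encodes a chromatin remodeller and Srrm2 a splicing factor. These correlations describe 24 and 26 blastomeres of shared embryos, and both genes are among the highest of many.

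Sfmbt2 (chr2:10370440-10595253, plus strand) had the largest upward difference between the stages among the 6 members with a row in both tables. At the 4-cell stage its level was 0 in 15 of 24 blastomeres, the highest value was 14.2 FPKM, and the mean was 1.31 FPKM. In the 8-cell table it was 0 in 9 of 26 blastomeres, the median was 1.06, the highest 23.1 and the mean 4.93 FPKM. The blastomeres above FPKM 1 were 20.8% (95% Clopper-Pearson interval 7.13 to 42.2%) and 50.0% (29.9 to 70.1%). The values overlap, since the highest 4-cell value exceeds all but 3 of the 8-cell values. The rise of the share by 29.2 percentage points was matched or exceeded by 1.35% of the 13604 genes with a row in both tables.

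On the scale of log2 of (mean FPKM + 1), the 8-cell level of Sfmbt2 was 1.36 above the 4-cell level, or 2.56-fold. A difference of at least 2-fold upward was found in 5.59% of the 13604 genes and one of at least 2-fold downward in 8.28%. Of the 6 members, 1 was past 2-fold upward and 0 downward. The 5 columns named NA held 3 of the highest Sfmbt2 values, at 16.8, 19.7 and 23.1 FPKM, and had a mean of 11.9 FPKM, whereas the 21 named columns had a mean of 3.26 and a highest value of 13.5 FPKM. Without the columns named NA the log2 difference was 0.88, which is below 2-fold. Leaving out 1 blastomere at a time gave 1.17 to 1.76.

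**Figure D3:**
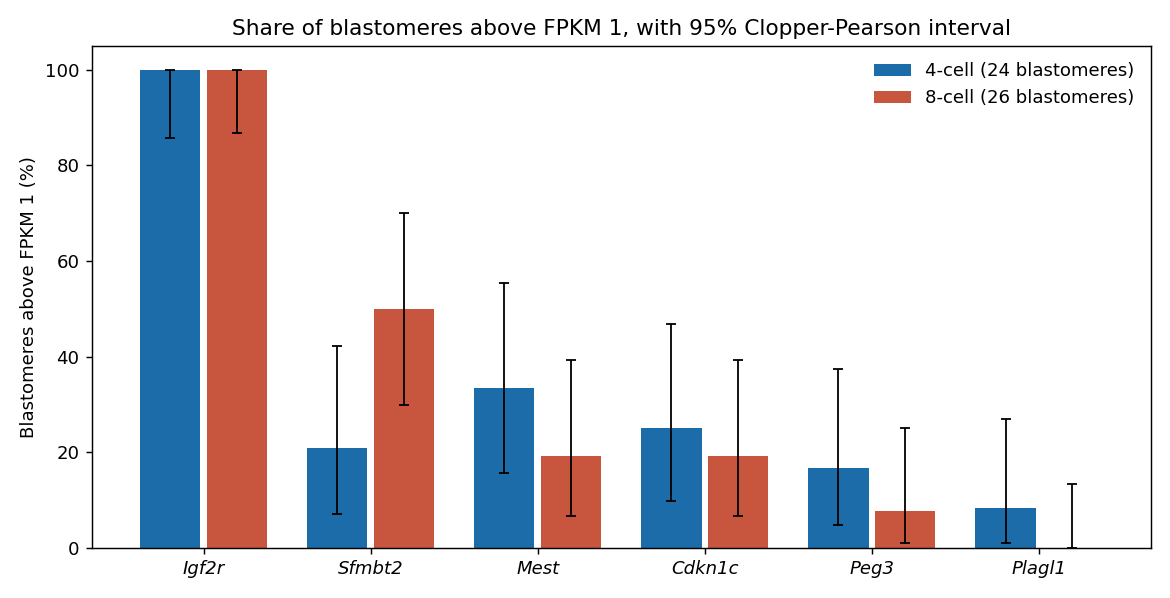
Share of blastomeres above FPKM 1 for the 6 imprinted genes with a row in both tables, in percent, at the 4-cell (blue) and 8-cell (red) stage. Error bars are 95% Clopper-Pearson intervals over blastomeres, which leave out that blastomeres share embryos and are no comparison of the stages. Sfmbt2 goes from 20.8 to 50.0%, and the other 4 genes below 100% have lower shares at the 8-cell stage.

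Mest (chr6:30733506-30748466, plus strand) encodes a membrane protein of the alpha/beta hydrolase fold. It was on in 8 of 24 4-cell blastomeres, or 33.3% (15.6 to 55.3%), with a highest value of 6.40 FPKM and a mean of 1.60. It was on in 5 of 26 8-cell blastomeres, or 19.2% (6.55 to 39.4%), with a highest value of 14.2 FPKM and a mean of 1.19. Both medians were 0, and the values overlapped between the stages. Of the 5 8-cell blastomeres in which Mest was on, 3 are columns named NA, at 4.81, 4.94 and 14.2 FPKM, and without these columns the log2 difference between the stages went from -0.25 to -0.96. The 3′ end of Mest overlaps that of Copg2 on the opposite strand over 913 bases, and Copg2 was on in 16.7% of the 4-cell and 11.5% of the 8-cell blastomeres.

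Cdkn1c, which encodes the cyclin-dependent kinase inhibitor p57, lies on the minus strand of chr7:143458339-143461059. It was on in 6 of 24 4-cell blastomeres, or 25% (9.77 to 46.7%), up to 4.50 FPKM and with a mean of 0.78. At the 8-cell stage it was on in 5 of 26, or 19.2% (6.55 to 39.4%), up to 8.98 FPKM and with a mean of 0.76. The log2 difference between the stages was -0.02, and it was -0.31 without the 8-cell blastomere at 8.98 FPKM. Of the maternally transcribed genes of the same cluster, Slc22a18 had no row, and Ascl2 had means of 0.12 and 0.43 FPKM. Kcnq1 and Th had 4-cell means of 0.14 and 0.15 FPKM and no 8-cell row. Osbpl5 and Tnfrsf23 had no 4-cell row and 8-cell means of 0.0010 and 0.0045 FPKM. Cd81 had means of 1.44 and 0.70 FPKM. Tssc4 had means of 14.9 and 15.7 FPKM and was on in 66.7% and 73.1% of the blastomeres. The highest of the cluster were Nap1l4 and Phlda2. Nap1l4, a histone chaperone gene, had means of 82.8 and 76.2 FPKM and was on in every blastomere. Phlda2, known as a placental growth restrictor, had means of 63.5 and 29.6 FPKM and was on in 91.7% and 73.1%. Kcnq1ot1, the paternal antisense RNA of this cluster, was above 0 in 13 of 24 and 16 of 26 blastomeres but above FPKM 1 in none, and 0 blastomeres, taken as at most 3, allow a share of up to 12.5% of 24 and 11.5% of 26, with exact 95% upper bounds of 14.2% and 13.2%.

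Peg3 (chr7:6703892-6730462, minus strand) encodes a zinc finger protein. It was on in 4 of 24 4-cell blastomeres, or 16.7% (4.74 to 37.4%), at 1.12, 2.65, 11.7 and 16.7 FPKM. It was on in 2 of 26 8-cell blastomeres, or 7.69% (0.95 to 25.1%), at 2.73 and 5.35 FPKM, the higher of them a column named NA. The means were 1.39 and 0.32 FPKM, and the log2 difference was -0.85. It was -1.82 with a pseudocount of 0.1, -1.50 after rescaling each blastomere to the same sum and -1.07 without the columns named NA, all past 2-fold. It was -0.93 with the other rescaling, -0.39 without the gene-poor blastomeres and 0 with medians, all short of 2-fold. It was -1.09 without the 8-cell blastomere at 5.35 FPKM and -0.38 without the 4-cell blastomere at 16.7 FPKM. The 2 highest 4-cell values were in the blastomeres with the second and the third highest Igf2r, and the higher of them is gene-poor, with 3699 genes on. Usp29, a ubiquitin protease gene that starts 97 bases from Peg3 on the opposite strand, was on in 12 of 24 4-cell and 5 of 26 8-cell blastomeres. Peg3 and Usp29 were on together in 1 4-cell blastomere and in no 8-cell blastomere.

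Plagl1 (chr10:13090832-13131694, plus strand) encodes a zinc finger factor that restrains the cell cycle. It was above 0 in 2 4-cell blastomeres, at 2.70 and 1.03 FPKM on 193 and 73 fragments. Among the 8-cell blastomeres it was above 0 in 1 blastomere, at 0.14 FPKM on 12 fragments, and it was on in 0 of 26, which allows a share of up to 11.5% by the limit of 3 and up to 13.2% by the exact interval.

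The members with a row at 1 stage were at the edge of detection. Igf2 (chr7:142650768-142666816), the growth factor gene, had 1 fragment in 1 of 24 4-cell blastomeres, at 0.019 FPKM. Snrpn (chr7:59982495-60450177), which encodes a spliceosomal protein, was above 0 in 1 of 24 4-cell blastomeres at 0.093 FPKM. Snrpn shares exons with Snurf, and how fragments on them were counted is not known. Snurf was itself above 0 in 1 4-cell blastomere, at 0.037 FPKM. Peg10 (chr6:4747306-4760517), a gene derived from a retrotransposon and needed in the placenta, had 1 fragment in 1 of 26 8-cell blastomeres, at 0.0087 FPKM. At the median depth of the stage, 3 fragments on Igf2 are 0.053 FPKM in a 4-cell blastomere and 3 fragments on Peg10 are 0.026 FPKM in an 8-cell blastomere. Sgce, the sarcoglycan gene, starts 102 bases from Peg10 on the opposite strand and shares its imprint. Sgce was on in 14 of 24 and 14 of 26 blastomeres, with means of 8.64 and 12.7 FPKM. Its medians went the other way, from 6.12 to 2.99 FPKM, and the 8-cell mean includes 1 blastomere at 145.6 FPKM. For both divergent pairs, Peg10 with Sgce and Peg3 with Usp29, the partner was on in more blastomeres than the member at each stage at which the member had a row.

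The fragments behind the detected values were counted next. Leaving out Igf2r, 38 values of members were above 0 at the 4-cell stage, with a median of 63.5 fragments, and 4 of them, or 10.53%, rested on fewer than 10 fragments. Among the 8-cell blastomeres 34 values were above 0, with a median of 267 fragments, and 5 of them, or 14.7%, rested on fewer than 10. Among genes with 1 curated transcript that were above 0 in under 50% of the blastomeres, these shares were 25.9% and 30.2%, with medians of 57.97 and 75.02 fragments, and among all genes with 1 curated transcript 10.1% and 11.1%, with medians of 417 and 616 fragments. Of the 34 8-cell values, 17 are of Sfmbt2, which was above 0 in more than 50% of the blastomeres. Blastomeres in which Sfmbt2, Mest, Cdkn1c or Peg3 was off were mostly at 0 rather than at low values. Sfmbt2 at the 8-cell stage, for example, had 9 values at 0, 3 values of 1 to 9 fragments and 14 of 10 or more fragments. Amplification of single-cell cDNA can lose rare transcripts, and whether a 0 is a lost transcript or an absent one cannot be told apart in these data.

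The number of members on differed between blastomeres. Besides Igf2r, 0 members were on in 9 4-cell blastomeres, 1 in 7, 2 in 6 and 3 in 2. At the 8-cell stage 0 were on in 11 blastomeres, 1 in 6, 2 in 8 and 3 in 1. The 8-cell blastomeres with no other member on had a median of 5884 genes on, and those with at least 1 had a median of 6809. At the 4-cell stage these medians were 6722 and 7203. The part of the number of detected genes in these counts was not tested.

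Among pairs of Sfmbt2, Mest, Cdkn1c and Peg3, Sfmbt2 and Mest were on together most often. All 5 4-cell blastomeres with Sfmbt2 on had Mest on as well, which is 62.5% of the 8 with Mest on. Conversely, all 5 8-cell blastomeres with Mest on had Sfmbt2 on, which is 38.5% of the 13 with Sfmbt2 on. Neither gene was on in a blastomere with Peg3 on at either stage. The 5 4-cell blastomeres had 7661 to 8276 genes on, against a median of 7155, and include the 4 with the most. Of the 5 8-cell blastomeres, 3 are columns named NA, and the 5 had 6513 to 8078 genes on, against a median of 6773. The part of gene number and of these columns was not tested. These counts are small, the pair was noted after the values were seen, and the blastomeres may come from few embryos.

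**Figure D4:**
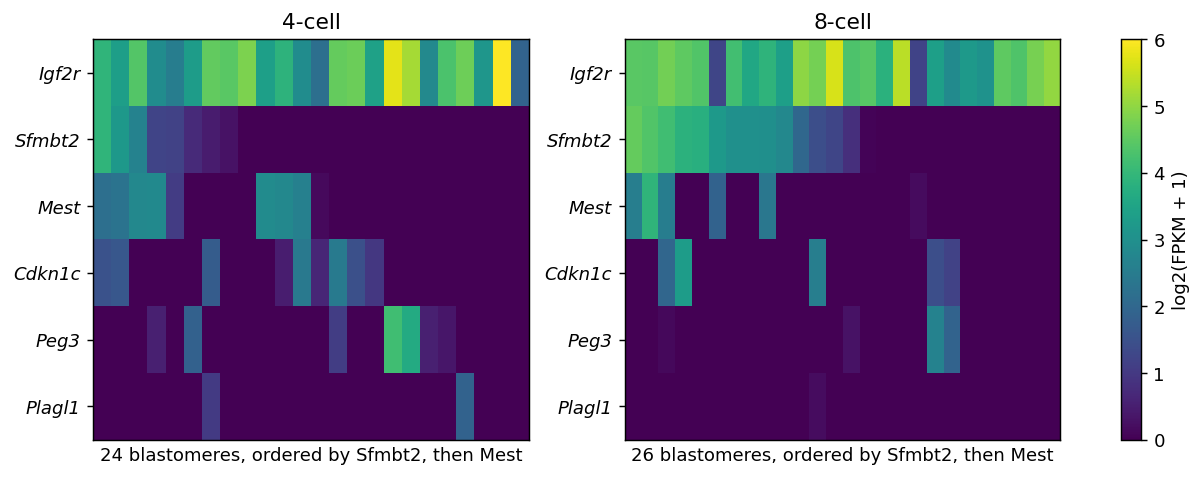
Level of the 6 imprinted genes with a row in both tables, as log2 of (FPKM + 1), in each of 24 4-cell (left) and 26 8-cell (right) blastomeres. Blastomeres are columns, ordered by Sfmbt2 and then Mest. The 5 8-cell blastomeres with Mest above FPKM 1 lie among those with Sfmbt2 above FPKM 1, and Peg3 above FPKM 1 lies outside them.

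A wider list held 56 other imprinted genes, of which 54 symbols matched a gene. At the 4-cell stage 34 of them had a row and 12, or 35.3%, were on in at least 50% of the blastomeres. At the 8-cell stage 37 had a row and 12, or 32.4%, were on. The shares over all genes were 45.2% and 41.2%. After Nap1l4 and Phlda2, the highest were Mcts2 (means of 29.5 and 28.6 FPKM), Blcap (19.1 and 18.1), Tssc4 (14.9 and 15.7), Jade1 (9.998 and 13.02), Sgce (8.64 and 12.7) and Gab1 (5.56 and 15.04). The medians of Sgce were 6.12 and 2.99 FPKM, and its 8-cell mean includes 1 blastomere at 145.6 FPKM. Gnas, which encodes a stimulatory G protein subunit, had means of 4.47 and 7.43 FPKM, and Grb10, an adaptor that restrains growth, 4.18 and 4.27. Inpp5f, a phosphoinositide phosphatase gene, had means of 3.79 and 4.35 FPKM but medians of 0.20 and 1.43. Its 4-cell mean includes a value of 65.4 FPKM in 1 blastomere.

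Of the 29 other imprinted genes with a row in both tables, 2 were at least 2-fold higher and 1 was at least 2-fold lower at the 8-cell stage. Of all 13604 genes, 5.59% were higher and 8.28% lower by this measure, and counts this small do not set the list apart. The higher ones were Slc38a4, an amino acid transporter gene, and Gab1, a signalling adaptor gene, and the lower one was Phlda2 (log2 difference -1.08). Phlda2, and Inpp5f, which was past 2-fold in neither direction, were not compared again with 1 blastomere left out. For Phlda2 the highest 4-cell value was 234 FPKM, beside a mean of 63.5. For Inpp5f it was 65.4 FPKM, beside a mean of 3.79. By these means, Phlda2 would be short of 2-fold without that blastomere, and Inpp5f would be past 2-fold upward without its own. Either count therefore depends on 1 blastomere. The median log2 difference was 0.04 over these 29 genes, -0.11 over the 6 members and -0.03 over the 13604 genes.

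With all blastomeres kept, Sfmbt2, Slc38a4 and Gab1 were the 3 imprinted genes past 2-fold upward. All 3 belong to a group known to be imprinted through maternal histone H3 lysine 27 trimethylation without germline DNA methylation. By its means, Inpp5f, which is outside this group, would also be past 2-fold upward without its 4-cell blastomere at 65.4 FPKM. Sfmbt2 was below 2-fold without the columns named NA. Which imprinted genes pass 2-fold upward therefore depends on the blastomeres kept. The group was put together after these values were seen and gets no test. Its 5 genes on the lists are Sfmbt2, Slc38a4, Gab1, Jade1 and Smoc1. Slc38a4 was on in 5 of 24 and 13 of 26 blastomeres, with means of 1.16 and 6.84 FPKM and a log2 difference of 1.86. Gab1 was on in 58.3% and 69.2%, with medians of 2.28 and 11.4 FPKM and a log2 difference of 1.29. In the columns named NA, Slc38a4 had a lower mean than in the named columns (4.97 against 7.28 FPKM) but a higher median (6.44 against 0.30), and was on in 60% against 47.6% of them. Gab1 had a mean of 12.8 in the columns named NA against 15.6 FPKM in the named columns, and was on in 80% against 66.7%. Jade1 had a log2 difference of 0.35, which was -0.11 without the columns named NA, where its mean was 29.1 FPKM against 9.19 in the named columns. Smoc1 had -0.84, which was 0.60 without the gene-poor blastomeres, since 1 4-cell blastomere held 52.3 FPKM of Smoc1. Sfmbt2 and Slc38a4 were on in the same number of blastomeres at each stage, but together in 3 of the 5 and 5 4-cell blastomeres and 6 of the 13 and 13 8-cell blastomeres.

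**Figure D5:**
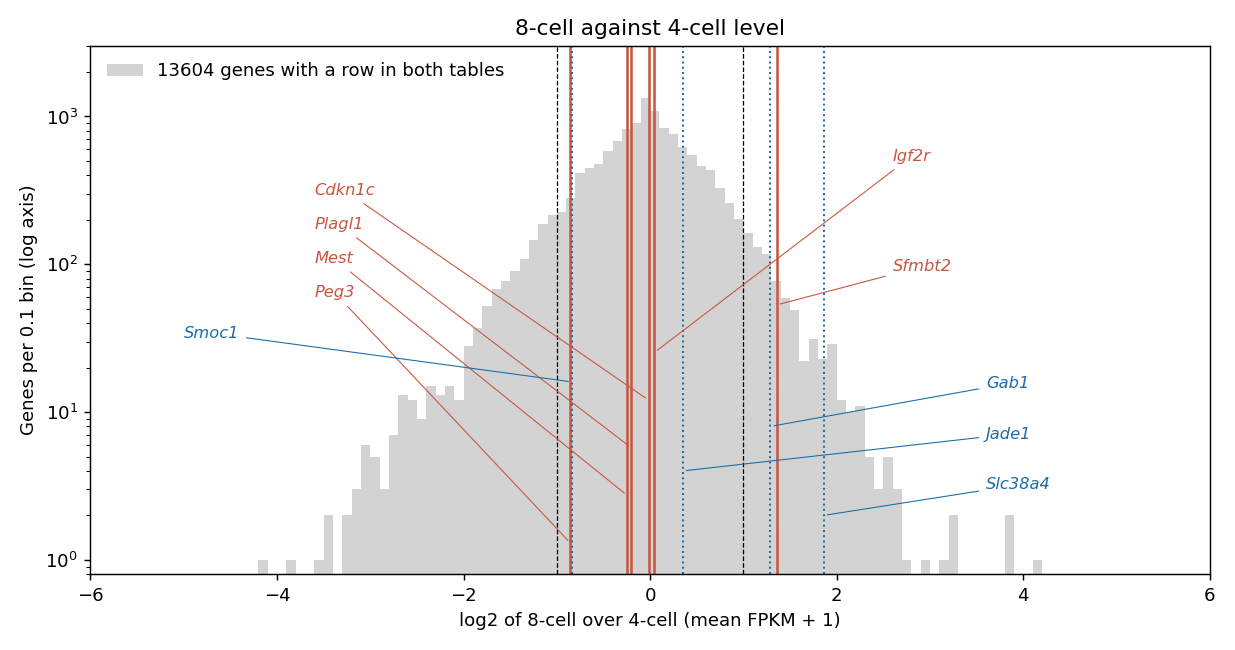
Distribution over 13604 genes of the log2 difference of the 8-cell over the 4-cell stage in mean FPKM + 1, with a log axis for the number of genes per bin. Red lines mark the 6 imprinted genes with a row in both tables, dotted blue lines the other genes imprinted without germline DNA methylation, and dashed lines 2-fold. Sfmbt2 (1.36), Gab1 (1.29) and Slc38a4 (1.86) lie past 2-fold upward.

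The factors known to keep or erase imprints were present at both stages. Of 12 such genes, all had a row in both tables and 11 were on in at least 50% of the blastomeres at each stage, where 45.2% and 41.2% of all genes were, the exception being Tet3, a methylcytosine dioxygenase gene with means of 0.21 and 0.76 FPKM. Zfp57 had means of 14.4 and 6.41 FPKM and was on in 91.7% and 73.1% of the blastomeres, and its log2 difference of -1.05 was past 2-fold. The highest 4-cell value of Zfp57 was 39.4 FPKM. By these means, the difference would be below 2-fold without that 1 blastomere. Zfp445, which encodes another zinc finger protein of imprints, had 6.67 and 8.41 FPKM, and Trim28, whose product is recruited by these proteins, 66.4 and 126.8 FPKM. Dppa3, which encodes a protein that shields maternal methylation, was the highest with 3538 and 3641 FPKM. The methyltransferase gene Dnmt1 had 8.70 and 5.29 FPKM and was on in 91.7% and 61.5% of the blastomeres. Dnmt3a had 5.23 and 4.75 and its cofactor gene Dnmt3l 11.6 and 9.62 FPKM. Ctcf, whose product binds the imprint control region between H19 and Igf2, had 20.97 and 19.6 FPKM. The histone methyltransferase genes Setdb1 and Ehmt2 had 7.55 and 8.00 and 8.39 and 5.57 FPKM. Eed, a subunit gene of the complex that writes H3 lysine 27 trimethylation, had 99.2 and 124.1 FPKM. With all blastomeres kept, 0 of the 12 were past 2-fold upward and 1 (Zfp57) downward, beside 5.59% and 8.28% of all genes.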

How the data were processed

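Single blastomeres of 4-cell and 8-cell mouse embryos were profiled with Smart-seq2. Per the study's methods and the labels, the authors aligned paired reads to mm10 with STAR 2.5.1b, kept unique alignments and counted them on RefSeq genes with HTSeq-count. The authors deposited FPKM values per gene and blastomere, in 1 table per stage. Tables of transposons were not used here. The columns carry no embryo, lineage or sample name that the labels share, so each stage was 1 pooled sample and no replicate test was made. The members and gene lists were chosen with earlier results of these data known.

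Members were matched by Entrez number through the RefSeq gene table. Each FPKM denominator was estimated from the steps that whole fragments leave in low values, and 91.4 to 96.6% of the low values of a blastomere, up to 10 fragments, lay within 0.1 of a whole number. The step was tested on simulated data. The depth, 2.34 to 21.7 M (mega) fragments, limits what a value of 0 means: at the median depth 3 fragments of Cdkn1c, the shortest member with a row, are 0.12 FPKM at the 4-cell stage and 0.09 FPKM at the 8-cell stage. A gene was on above FPKM 1 and on at a stage when at least 50% of blastomeres passed. Shares have exact Clopper-Pearson intervals and fragment sums exact Poisson intervals at 95%. The former treat blastomeres as independent although they share embryos. The latter cover counting error only, since amplified reads have no molecular identifiers. Stages were compared as log2 of (mean FPKM + 1), which understates the change of low genes, and called at 2-fold. No columns repeat each other, since the highest correlation between blastomeres was 0.89. Named were all members, up to 12 other imprinted genes on at either stage by mean FPKM, the 12 imprint protection genes and the 3 genes most like a member on at both stages, of which 1 is not reported here. Partners of the members at their loci, and genes imprinted without germline methylation, were chosen after their values were seen. Alternatives were other thresholds, a pseudocount of 0.1, medians, 2 rescalings, a filter on low values, and leaving out blastomeres. Python 3.11.15, pandas 2.3.3 and scipy 1.17.1 were used.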

Additional observations from a re-analysis of the deposited data

How the results depend on the processing

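With blastomeres left out 1 at a time, the number of members on was 1 throughout at the 4-cell stage and 1 to 2 at the 8-cell stage, as leaving out any of the 13 blastomeres with Sfmbt2 on takes it below 50%. It was also 1 at the 8-cell stage with FPKM above 5 or without the columns named NA. It was 3 at the 4-cell stage when 25% of the blastomeres were asked for, an alternative added after the data were seen. With FPKM above 5, 7 in place of 12 other imprinted genes were on at the 4-cell stage and 8 in place of 12 at the 8-cell stage. The number of members past 2-fold upward, which was 1, became 0 without the columns named NA, and stayed at 1 in the 6 other settings and in all 50 with 1 blastomere left out. The number past 2-fold downward was 0 to 1 with 1 blastomere left out, and was 1 (Peg3) without the 8-cell blastomere with the highest Peg3. It was 1 (Peg3) after rescaling to a fixed sum or without the columns named NA, and 2 (Peg3 and Plagl1) with a pseudocount of 0.1. Igf2r stayed between -0.11 and 0.45 on the log2 scale in every setting run, and Cdkn1c between -0.31 and 0.12. Without the gene-poor blastomeres each member kept its side of 2-fold. The cause of these shifts was not tested. Slc38a4 ran from 1.64 to 2.46 and Gab1 from 1.17 to 1.92. No paired analysis was possible because nothing in the table headers marks a replicate and columns were not matched to embryos otherwise. Whether the order or the depth of the columns would tie them to embryos was not tested. A value of 0 at these depths limits the share of blastomeres with a detected transcript, not the share that transcribe the gene.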
